A study of Mus musculus with 6 samples.

Results

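The EGF receptor family and its ligands were followed by name in isolated crypts of the mouse intestine that had lost Arid1a. The family as taken here held 10 genes, of which 7 encode ligands (Areg, Ereg, Egf, Tgfa, Btc, Hbegf and Epgn) and 3 encode receptors (Egfr, Erbb2 and Erbb3). They were found as every non-control probe whose accession maps to one of these symbols, which gave 14 probes, among 23462 genes with a named probe in all. The members were listed by gene name with the differences between knockout and control in these data already known, so those differences are given as a description and support nothing further. Gene expression was measured on Agilent one-colour arrays in 6 samples of mixed strain. In 3 samples, Villin-Cre; Arid1a f/f, the Villin promoter, active throughout the epithelium of the gut, drives the Cre recombinase that deletes Arid1a, which encodes a subunit of the BAF remodelling complex. The 3 control samples, Arid1a f/f, carry the same floxed alleles without Cre. Ages, the segment of intestine and whether samples came from separate animals are not given in the sources used here, so the p-values cover only how these samples vary, which may be technical variation.

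For 2 arrays the labels are at odds. Knockout 2 is a knockout by its title and description but a control by source name and genotype, and control 3 has the opposite conflict. Groups here follow title and description, and the calls given below were also run without both of these conflicting arrays. Knockouts 1 and 2 and controls 1 and 2 shared slide 1, and knockout 3 and control 3 shared slide 2, which was scanned on another day. Between 41.7% and 54.7% of 56605 probes on each array were well above background. Arid1a, measured by 1 probe of unstated position relative to the deletion, had log2 signals of 2.20, 2.07 and 2.51 on knockout arrays 1 to 3, against 3.71, 3.47 and 4.01 on control arrays 1 to 3 (difference -1.47 ± 0.21 SE, adjusted p = 0.00733 in limma). Knockout 2 and control 3 each lay with the group their titles give. Without both conflicting arrays the Arid1a difference was -1.23 (adjusted p = 0.0978 in limma). Epithelial markers, such as Epcam and Vil1, were well above background for 8 of 8 genes, and 0 of 8 passed the test. Of 8 fibroblast markers 0 were well above background on 3 or more arrays, with Col1a1, Col3a1, Pdgfra, Dcn and Lum below it on all 6.

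The family carries growth signals into the crypt. Its ligands are made as membrane-anchored precursors and are cut free by cell-surface proteases, after which they bind Egfr, and some of them Erbb4, and bring receptors together in pairs that activate the RAS and ERK kinase cascade. Erbb2 has no known ligand of its own and acts as a partner, and Erbb3 has a weak kinase and passes its signal mainly to PI3-kinase. In the small intestine EGF sustains proliferating stem cells and is a standard ingredient of organoid culture, Paneth cells are known as a source of Egf and Tgfa, and Areg and Ereg are known for their induction during repair.

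Epgn, Ereg, Areg and Btc lie in that order in a cluster on mouse chromosome 5, in the RefSeq table of assembly GRCm38.p6. Promoter sequences from RefSeq (GRCm38.p6) were used for 7 of the 10 members. None was used for Ereg and Erbb3, nor for Hbegf, whose chromosome was left out. The sequences used from the cluster are shown because Areg, called in what follows, lies there. Each is the 250 bases before the annotated start, 5′ to 3′ in the direction of transcription, with capitals marking any match to the motifs searched. Areg lies at chr5:91139349-91139598 on the plus strand, Epgn at chr5:91027267-91027516 on the plus strand and Btc at chr5:91402995-91403244 on the minus strand.
Areg: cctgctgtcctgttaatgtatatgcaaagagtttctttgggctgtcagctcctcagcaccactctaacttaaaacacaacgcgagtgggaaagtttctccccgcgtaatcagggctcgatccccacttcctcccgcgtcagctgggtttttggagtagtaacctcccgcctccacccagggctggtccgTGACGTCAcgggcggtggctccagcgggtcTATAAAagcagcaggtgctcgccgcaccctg
Epgn: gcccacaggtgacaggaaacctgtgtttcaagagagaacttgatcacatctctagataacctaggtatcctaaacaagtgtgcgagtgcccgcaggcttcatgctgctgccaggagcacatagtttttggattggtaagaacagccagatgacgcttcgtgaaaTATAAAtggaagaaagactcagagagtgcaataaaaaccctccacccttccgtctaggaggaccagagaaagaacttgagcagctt
Btc: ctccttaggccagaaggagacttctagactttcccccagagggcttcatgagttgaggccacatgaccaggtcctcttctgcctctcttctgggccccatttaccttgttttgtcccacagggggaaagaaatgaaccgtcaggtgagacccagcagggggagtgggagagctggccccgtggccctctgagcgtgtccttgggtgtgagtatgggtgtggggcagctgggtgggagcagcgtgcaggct
The motifs, searched on both strands, were the cyclic AMP response element TGACGTCA, the AP-1 site TGANTCA, the TEAD site GGAATG and the TATA box TATAAA. Areg held the cyclic AMP response element once, starting 61 bases before the gene's start, and 1 TATA box 31 bases before it. The cyclic AMP response element was found in 1.55% of 32851 windows of the same length, and the TATA box in 12.4%. Epgn held 1 TATA box 86 bases before its start, and Btc held none of these motifs. The AP-1 site, which is in 6.75% of all windows, was in none of the windows of the 7 members, and the TEAD site, in 12.6% of all windows, was in the Erbb2 window alone, 88 bases before the start. A match is a run of letters and no evidence that a factor binds there.

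Areg and Ereg rose in the knockout crypts, and the other ligands did not pass the test. Among 13492 genes compared with limma and Benjamini-Hochberg adjustment, 14.9% were called at an adjusted p under 0.05, with 7.28% higher and 7.63% lower in the knockout. Of the 10 members 8 had a probe well above background on at least 3 arrays, and 2 of these 8, both ligands, were called. Every value below is a log2 signal relative to the 75th percentile of its array, and every difference is knockout minus control on that scale with its SE and n = 3 per group.

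Areg encodes amphiregulin, a ligand of Egfr. Its log2 signal was 4.91, 5.004 and 4.81 on knockout arrays 1 to 3, against 0.50, 0.52 and 0.53 on control arrays 1 to 3. All 3 knockout arrays lay far above all 3 control arrays, and each group was tightly grouped, with an SD of 0.096 in the knockout and 0.013 in the controls. In scanner units the processed signal was 8741, 6621 and 5747 on the knockout arrays and 419, 399 and 418 on the control arrays. The difference was 4.39 ± 0.14, or 21.0-fold (95% interval 4.06 to 4.73 on the log2 scale, adjusted p = 0.000209 in limma). Areg had the smallest p of the 13492 genes and the 28th largest rise. The difference was 4.44 within slide 1 and 4.28 within slide 2. Without both conflicting arrays it was 4.35 (adjusted p = 0.0162), and knockout 2 and control 3 each lay with the group their titles give.

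Ereg encodes epiregulin, a ligand of Egfr and Erbb4 and the direct neighbour of Areg among protein-coding genes. It measured -0.37, -0.24 and -0.48 on knockout arrays 1 to 3, against -4.43, -3.71 and -3.73 on control arrays 1 to 3. The groups did not overlap. Ereg was well above background on all 3 knockout arrays but on only 1 of 3 control arrays, control 3, so its knockout arrays alone brought it past the filter and its fold, interval and rank are set against a control signal largely near background. The difference was 3.60 ± 0.23, or 12.1-fold (95% interval 3.04 to 4.15, adjusted p = 0.000627 in limma), the 57th largest rise. It was 3.77 within slide 1 and 3.25 within slide 2, and 3.65 without both conflicting arrays (adjusted p = 0.0199). Because the control signal lay near background, the size depended on how background was handled: with a normexp correction the difference was 1.76 (adjusted p = 0.000302).

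**Figure D1:**
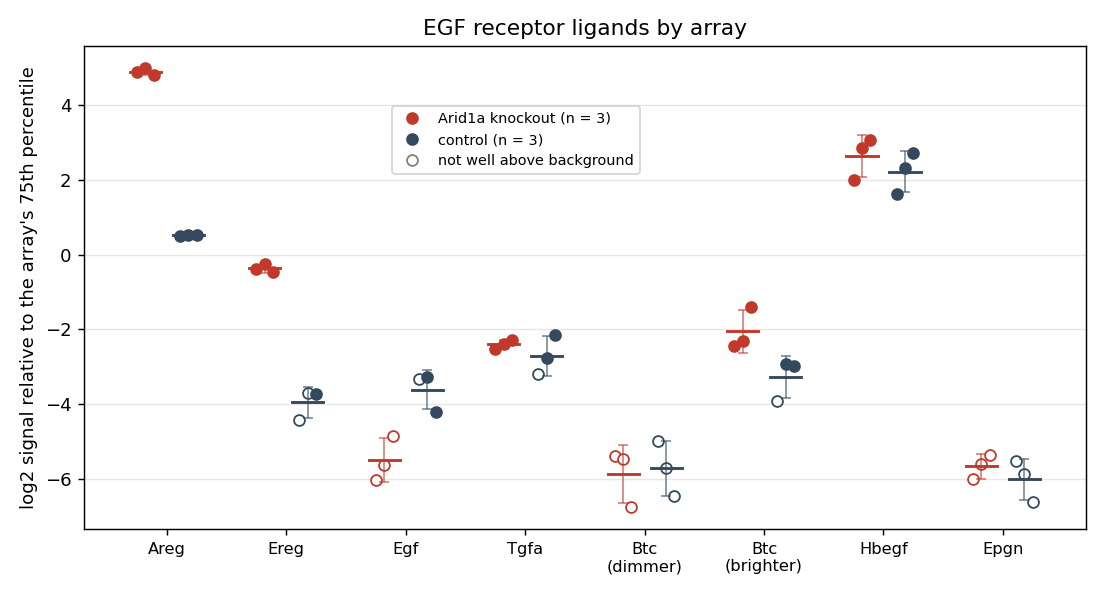
Log2 signal of the 8 ligand probes relative to the array's 75th percentile, 1 point per array, with lines for group means and bars for 1 SD (n = 3 knockout and n = 3 control arrays). Open points were not well above background. The Areg points sit between 4.81 and 5.004 in the knockout and between 0.50 and 0.53 in the controls, and the Ereg points are likewise apart, whereas Tgfa and Hbegf overlap.

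Egf, the founding ligand of the family, was listed in the opposite direction but near background. Its probe gave -6.03, -5.64 and -4.87 on knockout arrays 1 to 3, against -3.35, -3.29 and -4.23 on control arrays 1 to 3. The groups did not overlap, but the probe was well above background on 0 of 3 knockout arrays and 2 of 3 control arrays, so it was below the filter and was not tested. Measured against the lowest signal well above background on each knockout array, Egf was 1.25-fold lower in the knockout. This is no firm bound, because the control mean includes an array that was not well above background. The measured difference was -1.89, with -2.52 within slide 1 and -0.65 within slide 2. With no filter on dim probes it did not pass (adjusted p = 0.100 in limma over all probes). Beside this, markers of Paneth cells were lower: of 7 measured members 5 fell and 0 rose, where 7.63% of all genes were called lower. Their median difference was -2.92, the value of Wnt3, against -0.01 over all genes. Their summed signal ranged from 65.6 to 357 times the array's 75th percentile in the knockout and from 820 to 1064 times in the controls. Wnt3, a niche signal made by these cells, was below the well-above-background flag on all 3 knockout arrays. Its control arrays alone thus brought it past the filter. Lyz1, the Paneth lysozyme, was well above background on all 6 arrays. No Paneth marker was called without both conflicting arrays (0 of 7, with 5 at an unadjusted p under 0.05 in limma), 0 without control 1, 0 without control 2, 1 without control 3 and 1 without knockout 2. The part of Paneth cells in the Egf values was not tested, and in RNA from whole crypts fewer cells of a type and less RNA per cell cannot be told apart.

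Tgfa encodes transforming growth factor alpha, which binds Egfr. Its signal was -2.52, -2.39 and -2.29 on the knockout arrays, against -3.21, -2.78 and -2.14 on the control arrays. The probe was dim, well above background on all 3 knockout arrays and on 2 of 3 control arrays. The groups overlapped, and the difference of 0.31 ± 0.28 did not pass (95% interval -0.36 to 0.97, adjusted p = 0.459 in limma). Within slides it was 0.54 on slide 1 and -0.15 on slide 2. Hbegf, the heparin-binding ligand of Egfr and Erbb4, gave 1.996, 2.86 and 3.07 on the knockout arrays, against 1.63, 2.33 and 2.71 on the control arrays. On this scale Hbegf was higher in the knockout array of each same-numbered set, a pairing that the labels do not state. In scanner units knockout 3 was below control 3 (1713 against 1901), while knockouts 1 and 2 were above controls 1 and 2. The groups overlapped, and the difference of 0.42 ± 0.38 did not pass (95% interval -0.48 to 1.31, adjusted p = 0.459 in limma).

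Btc encodes betacellulin, a further ligand of Egfr and Erbb4, and had 2 probes. The brighter probe measured -2.45, -2.32 and -1.39 on knockout arrays 1 to 3, against -3.93, -2.93 and -2.98 on control arrays 1 to 3. Every knockout array lay above every control array, as it did for 19.0% of all genes, and 2 of 3 control arrays were well above background. The difference was 1.23 ± 0.38 (95% interval 0.31 to 2.14) and narrowly missed the threshold (adjusted p = 0.0755 in limma), with 1.04 within slide 1 and 1.59 within slide 2. With slide as a block it passed (adjusted p = 0.0448). The dimmer Btc probe stayed near background on all 6 arrays, with a range of -6.78 to -5.39 in the knockout and -6.46 to -4.98 in the controls. Epgn, which encodes epigen, another Egfr ligand, was likewise never well above background. Its probe ranged from -6.02 to -5.36 in the knockout and from -6.62 to -5.54 in the controls, and no fold is given.

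The receptors were measured well above background on all 6 arrays by each of their 6 probes, and none of the 3 genes passed the test (0 called, with 1 at an unadjusted p under 0.05 in limma). Egfr, the receptor that all 7 ligands bind, had 3 probes. The brightest measured 1.92, 1.77 and 2.25 on knockout arrays 1 to 3, against 1.46, 1.55 and 1.53 on control arrays 1 to 3. All knockout values were above all control values, by less than 1 log2 unit. The difference was 0.47 ± 0.17, a 1.38-fold higher mean (95% interval 0.05 to 0.88, adjusted p = 0.116).

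The other Egfr probes lay the same way. A second, dimmer probe designed to the same transcript gave -0.50, -0.83 and -0.33 on the knockout arrays, against -1.49, -1.24 and -1.43 on the control arrays. Its difference of 0.83 ± 0.19 passed in the limma fit over 26740 probes (adjusted p = 0.0421), in which 10.4% of probes were called. That call was lost when any 1 of the 6 arrays was left out, without both conflicting arrays, on slide 1 alone, and with normexp correction or array-median scaling. The dimmest probe, designed to another transcript of the gene, gave -1.16, -1.13 and -0.68 on the knockout arrays, against -1.60, -1.39 and -1.42 on the control arrays, a difference of 0.48 ± 0.19 (adjusted p = 0.147). Thus each of the 3 probes had its knockout arrays above its control arrays, and their differences ranged from 0.47 to 0.83. On all 3 the difference was larger within slide 2, at 0.72, 1.102 and 0.74, than within slide 1, at 0.34, 0.70 and 0.35. Scaled to the array median, which moved the median difference of all genes to -0.26, the brightest probe differed by 0.22 (adjusted p = 0.526).

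Erbb2 did not pass on either of its probes. The brighter probe measured 3.54, 4.01 and 4.32 on knockout arrays 1 to 3, against 4.22, 3.80 and 4.16 on control arrays 1 to 3. The groups overlapped, and the difference was -0.10 ± 0.24 (95% interval -0.68 to 0.47, adjusted p = 0.789 in limma). The dimmer probe differed by -0.08. Erbb3 measured -1.51, -0.86 and -0.50 on the knockout arrays, against -0.75, -1.18 and -0.85 on the control arrays. Its knockout arrays spread around the controls, with a difference of -0.03 ± 0.28 (95% interval -0.71 to 0.65, adjusted p = 0.952). The intervals leave out a 2-fold difference in either direction for both genes.

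**Figure D2:**
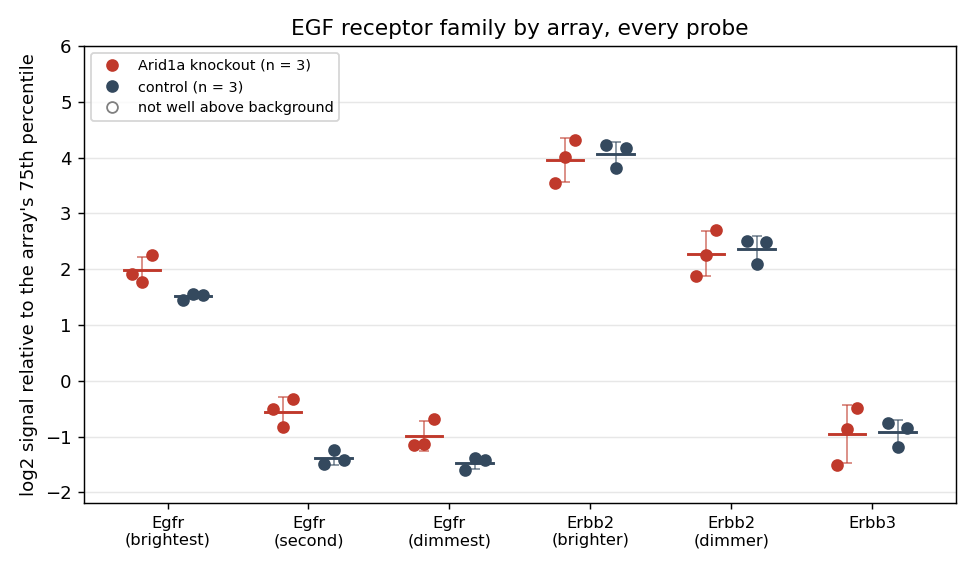
Log2 signal of the 6 receptor probes relative to the array's 75th percentile, 1 point per array, with lines for group means and bars for 1 SD (n = 3 knockout and n = 3 control arrays). The 3 Egfr probes each have the knockout arrays above the control arrays, with differences of 0.47 to 0.83, while the Erbb2 and Erbb3 points overlap.

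The 8 tested members thus split by size of difference. In 4 of them (Areg, Ereg, Btc and Egfr) every knockout array lay above every control array, as in 19.0% of all genes. Over all genes 39.7% had groups that did not overlap in either direction. No tested member had every knockout array below the controls, as 20.7% of all genes did. Leaving out each array in turn kept Areg between 4.34 and 4.44 and Ereg between 3.36 and 3.72, with both called each time (highest adjusted p = 0.00358 for Areg and 0.00544 for Ereg). For Btc the range was 0.90 to 1.42 and for Egfr 0.33 to 0.57, with neither called. When arrays were grouped by source name and genotype, which exchanges knockout 2 and control 3, Areg differed by 1.41 and Ereg by 1.27, and 0 members passed in limma (adjusted p = 0.999 for both), with 0 of the 8 at an unadjusted p under 0.05. In that grouping the deleted gene Arid1a differed by only -0.18 (adjusted p = 0.999 in limma), and 0 of all 13492 genes were called.

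**Figure D3:**
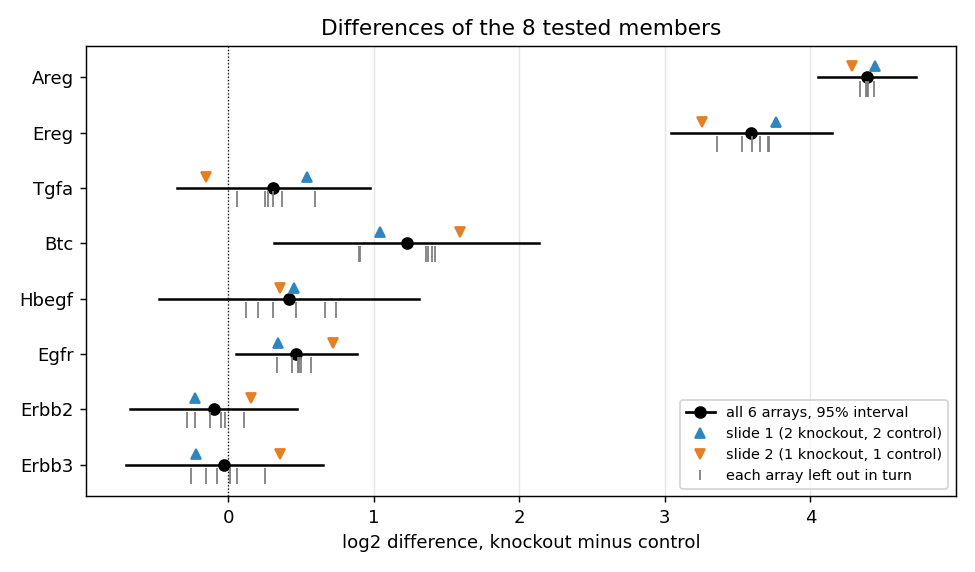
Log2 difference, knockout minus control, of the 8 tested members. Black points with lines give the value over 6 arrays with its 95% interval, triangles the differences within slide 1 (2 knockout and 2 control arrays) and slide 2 (1 of each), and grey ticks the values with each array left out. Areg at 4.39 and Ereg at 3.60 lie far from 0 on both slides, and Erbb2 and Erbb3 straddle 0.

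Of 6 measured genes listed around the cluster on chromosome 5, 0 passed in limma (4 at an unadjusted p under 0.05), with 4 positive and 2 negative differences. Mthfd2l, a mitochondrial folate enzyme gene next to Epgn, differed by -0.59 ± 0.21 on its brightest probe (adjusted p = 0.108 in limma). Its signal was 0.35, 0.28 and -0.26 on the knockout arrays, against 0.91, 0.65 and 0.59 on the control arrays. Parm1, on the far side of Btc, differed by -0.69 ± 0.23 (adjusted p = 0.0859), with 1.30, 1.51 and 1.24 in the knockout and 2.18, 1.61 and 2.35 in the controls. On these probes of both flanking genes every knockout array lay below every control array, as in 20.7% of all genes. Farther out, Cdkl2 (0.79 ± 0.23, adjusted p = 0.0612 in limma) and Rchy1 (0.47 ± 0.17, adjusted p = 0.108) had every knockout array above every control array, as 19.0% of all genes did. Cdkl2 passed with slide as a block, and Rchy1 passed without knockout 1. Of 2 non-coding genes with probes inside the cluster, Gm19619 was never well above background, and Gm19610 was so for 1 of 2 probes, on 1 knockout array.

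**Figure D4:**
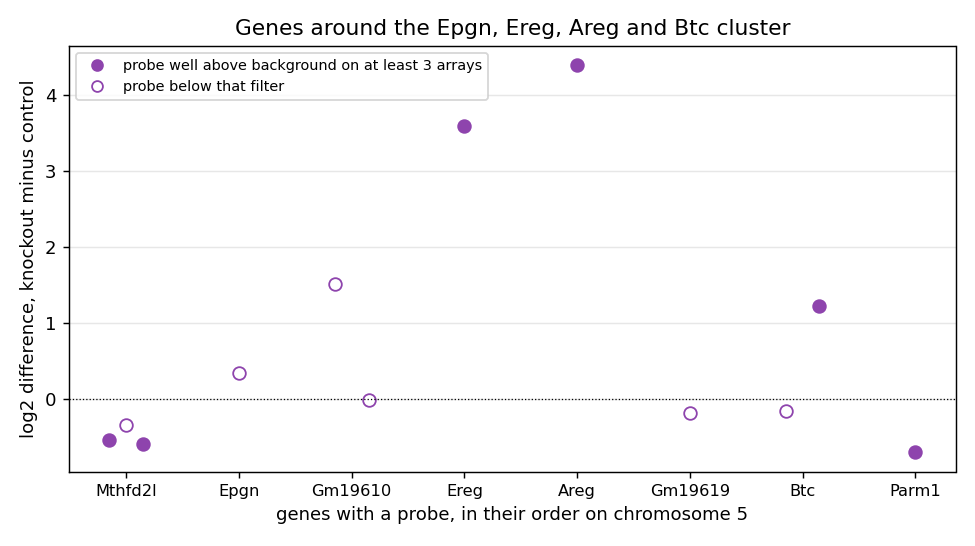
Log2 difference, knockout minus control, for each probe of the genes from Mthfd2l to Parm1, in their order on chromosome 5. Filled points passed the background filter. Areg at 4.39 and Ereg at 3.60 stand above their neighbours, and the flanking genes Mthfd2l and Parm1, neither called, lie below 0.

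Over the 6 arrays the genes whose pattern was most like Areg, by Pearson correlation of log2 signals, were Enpp1 (r = 0.999), Vwa7 (r = 0.999) and Cacnb3 (r = 0.998). Enpp1, an ectonucleotidase gene, measured 1.76, 1.90 and 1.80 on the knockout arrays, against -0.62, -0.56 and -0.64 on the control arrays. For Egfr they were Cdkl2 (r = 0.995), also among the genes listed around the ligand cluster, Slc4a11 (r = 0.994) and Tmem25 (r = 0.992). With 3 arrays a group such values follow from any steady group difference, and they are descriptions of these arrays.

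Over 5 pathway lists 11 of 58 measured genes were called, or 19.0% beside 14.9% of all genes, with 8 higher and 3 lower, and scaled to the array median 8 were, 3 higher and 5 lower. Of 10 listed genes that release the ligands 8 were measured, of which 2 rose and 1 fell, with a median of 0.20 against -0.01 over all genes. Scaled to the array median 0 were higher and 1, Rhbdf1, was lower. Adam10, the sheddase that cuts Egf and Btc, measured 4.54, 4.59 and 4.56 on the knockout arrays, against 3.67, 3.52 and 3.80 on the control arrays, a rise of 0.90 ± 0.15 (adjusted p = 0.0126 in limma). Frmd8, a cofactor that stabilises the sheddase complex, rose by 0.89 ± 0.20, and Rhbdf1, an inactive rhomboid that escorts Adam17, fell, with a difference of -0.86 ± 0.20. Adam17 itself, the main sheddase of Areg, Ereg, Tgfa and Hbegf, measured 1.13, 1.18 and 1.403 in the knockout and 1.17, 1.04 and 1.27 in the controls, a difference of 0.07 ± 0.16 that did not pass. The number called was 0 without control 1, 0 without control 2, 1 without control 3, 2 without knockout 2, 1 without knockout 3, and 0 without both conflicting arrays, with 3 at an unadjusted p under 0.05.

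Among genes that restrain the receptors 2 of 13 measured rose and 0 fell, with a median of 0.16. That count is close to the 14.9% called over all genes in either direction. Scaled to the array median 1 was higher (Errfi1) and 1 lower (Lrig3). Errfi1, a feedback inhibitor that binds the Egfr kinase, measured 3.995, 5.06 and 4.998 on the knockout arrays, against 3.30, 3.27 and 3.53 on the control arrays, a rise of 1.32 ± 0.30 (adjusted p = 0.0349 in limma). Socs4, of a ubiquitin ligase that can target Egfr, rose by 0.98 ± 0.23. Both were called with all 6 arrays, but the count was 0 without control 1, control 2 or knockout 2, 1 without control 3, 1 without knockout 3 (Lrig3, lower), 4 without knockout 1 (3 higher and 1 lower), and 0 without both conflicting arrays, with 2 at an unadjusted p under 0.05. Of 22 adaptors and kinases of the RAS and ERK cascade 0 rose and 1 fell, again beside 14.9% of all genes called, with a median of 0.04. Sos1, the exchange factor that loads RAS, measured 1.22, 1.47 and 1.31 in the knockout and 2.33, 2.05 and 2.16 in the controls (difference -0.85 ± 0.16, adjusted p = 0.0185). That count was 0 when control 1, 2 or 3 was left out and without both conflicting arrays, and 4 with slide as a block.

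Genes induced by ERK signalling had the highest median of the 5 pathway lists, 0.99, although this list was drawn up with results of these data known. Of 13 measured members 4 rose and 0 fell, where 7.28% of all genes were called higher and 7.63% lower. The difference was positive in 10 of the 13, beside 6630 of 13492 over all genes. Phlda1, an ERK-induced gene, measured 4.61, 5.44 and 4.67 on knockout arrays 1 to 3, against 1.72, 1.84 and 2.28 on control arrays 1 to 3. That is a rise of 2.96 ± 0.28 (adjusted p = 0.00188 in limma). Dusp6, a phosphatase that switches ERK off, measured 5.47, 6.45 and 6.43 in the knockout and 3.54, 3.86 and 4.23 in the controls, a rise of 2.24 ± 0.32 (adjusted p = 0.00798). In both genes the groups were well apart. Dusp4, another such phosphatase, rose by 1.31 ± 0.30, and Egr1, an immediate early factor, by 1.11 ± 0.29. Fos had a difference of 1.03 ± 0.38 and Myc one of -0.76 ± 0.38, and neither passed. With slide as a block Egr1 did not pass, and with the replicate number as a block Fos passed but Egr1 did not. Without both conflicting arrays Phlda1 was the 1 member called, with 6 at an unadjusted p under 0.05. The count was 2 without control 2, control 3 or knockout 2 and 7 without knockout 1 (6 higher and 1 lower). It was 2 on slide 1 alone, with the array median and with quantile normalization.

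Erbb4, the remaining receptor, was well above background on 1 knockout array alone, and the neuregulins, ligands of Erbb3 and Erbb4, were measured for 2 of 4 genes. Nrg4, a ligand of Erbb4, fell on its brightest probe. It measured -2.60, -2.04 and -1.83 on the knockout arrays, against -0.56, -0.48 and -0.23 on the control arrays (difference -1.73 ± 0.23, adjusted p = 0.00659 in limma). Its other probes differed by -1.41 and -1.18, and all 3 probes had every knockout array below every control array, an order seen in 20.7% of all genes. Nrg4 did not pass without both conflicting arrays. Nrg1 differed by -0.22 ± 0.40 and did not pass.

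**Figure D5:**
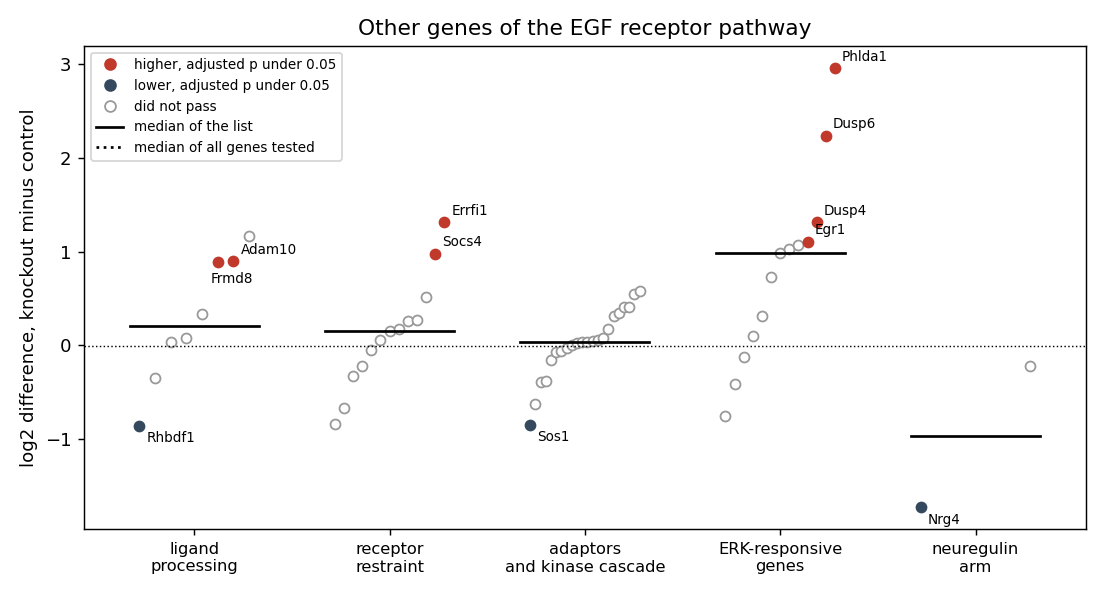
Log2 difference, knockout minus control, of each measured gene in the 5 pathway lists (8, 13, 22, 13 and 2 genes), with filled points for genes past an adjusted p of 0.05 and lines for list medians. The ERK-responsive genes have a median of 0.99 and 4 called genes, all higher, whereas the adaptors and kinases centre at 0.04 with Sos1 alone called.

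Markers of other cells that can make Areg or Ereg were set beside these values. Of 8 lymphocyte markers measured 0 were called in limma (1 at an unadjusted p under 0.05, and 1, Cd4, called lower with array-median scaling). Their summed signal ranged from 64.1 to 144 times the array's 75th percentile in the knockout and from 67.6 to 161 times in the controls. Gzma and Cd4 made up most of it, with differences of 0.31 ± 0.55 and -1.47 ± 0.54. For 5 myeloid markers the summed signal was 103 to 191 times in the knockout and 63.1 to 120 times in the controls. Itgam made up most of that sum and did not pass (adjusted p = 0.249 in limma). Its log2 signal was 6.44, 7.18 and 7.55 on the knockout arrays, against 5.69, 6.79 and 6.62 on the control arrays. Mean log2 signal over the 5 markers was 1.81, 1.53 and 0.95 in the knockout and 1.61, 1.75 and 1.67 in the controls. Among them Cd68 was higher by 0.87 ± 0.16, and Lyz2, which shares sequence with the Paneth lysozyme, was at -3.43 ± 0.76. Of the innate lymphoid and mast cell markers 4 of 8 were measured. Gata3, also a factor of other lymphocytes and well above background on 1 of 3 control arrays, rose by 3.37 ± 0.61, and Kit had a difference of -1.28 ± 0.29 that passed, while Il1rl1, Cpa3 and Ms4a2 were below background on all 6 arrays. The summed signal of that list was 1.45 to 2.26 times in the knockout and 1.06 to 1.78 times in the controls. Of 3 smooth muscle markers Acta2 rose, by 0.91 ± 0.24, with Myh11, Des and Cnn1 below background on every array. Of 3 endothelial markers Esam alone was called, lower in the knockout, where it was never well above background. Its control arrays alone thus brought Esam past the filter, and with normexp correction 0 endothelial markers were called. None of these 6 marker calls was made without both conflicting arrays, without control 1 or without control 2, whereas 2 were made without control 3, 2 without knockout 2 and 4 without knockout 3. The part of other cells in the Areg and Ereg values was not tested.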

How the data were processed

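RNA of 3 knockout and 3 control samples was hybridised to Agilent one-colour arrays with Cy3, per the labels. The authors read spot intensity with Agilent's Feature Extraction software, whose version is 12.0.3.1 in the file headers but 11.5.1.1 in the submitters' processing notes. The processed intensity is background-subtracted within its array and not scaled between arrays, per the file headers. Flags for signal well above background and outliers are the authors' Feature Extraction values as deposited. The series table deposited by the authors is in log2 units, with direction and scale as in the scanner files on the 75th percentile scale, centred on each probe's median (correlation 1.00 on every array, column medians -0.0717, 0.214 and -0.183 for knockouts 1 to 3 and 0.196, 0.0606 and -0.322 for controls 1 to 3). It served only as an alternative.

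Spots flagged as controls or outliers were dropped, and processed signals were expressed as log2 values relative to the 75th percentile of their array (a signal of 205 to 292 in the knockout and 279 to 295 in the controls). No spot was saturated. Probes were named through their accession in a RefSeq table of GRCm38.p6 (33767 of 56605 matched 1 symbol). The array's annotation is on another build, so gene coordinates are given for the RefSeq promoter windows only, which leave out the 50 bases after the start. A probe was kept when at least 3 of 6 arrays had it well above background (26746), and the brightest probe of each of 13492 genes was fitted with limma (version 3.58.1, R 4.3.3), group as the only term, two-sided, with Benjamini-Hochberg adjustment and a threshold of 0.05. A second fit took 26740 single probes with a value on every array. For a gene not well above background in a whole group the bound sets the mean of the brighter group against the dim group's mean, each dim array entering at its own signal or, if higher, at its lowest signal well above background. The fit was tested on simulated data.

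The members, gene lists, tests and alternatives were chosen with earlier results of these data known. Cdkl2, Rchy1, Lrig3 and Cd4 were named for their change between settings. Named were all members, Arid1a, up to 4 called genes with the smallest p of each pathway list, the genes beside the ligand cluster and the 3 most like the ligand and the receptor with the largest difference. Other single genes given as values (Adam17, Fos, Myc, Nrg1 and single cell type markers) were chosen after their values were seen. Alternatives were the replicate number or slide as a block, slide 1 or slide 2 alone, the labels, background correction (normexp, offset 50, on median signals), 3 other scalings, 2 filters, array weights, how probes and variance were handled, the deposited table, thresholds and each array left out.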

Additional observations from a re-analysis of the deposited data

How the results depend on the processing

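The calls of Areg and Ereg held under every alternative with a test that kept the title groups and in which the gene was measured, and slide 2 alone, with 1 array per group, gives no test. Areg ranged from 4.11 to 4.47 (adjusted p 1.37e-05 to 0.0162 in limma) and Ereg from 1.76 to 3.77 (adjusted p 7.15e-05 to 0.0199). Grouped by source name and genotype, 0 ligands, 0 single probes and 0 pathway genes passed, with 0 at an unadjusted p under 0.05 among each. With probes well above background on all 6 arrays, 1 ligand (Areg) was called, since Ereg, Tgfa and Btc were no longer tested. Receptors called stayed at 0 in every setting run. Btc passed with array quality weights (adjusted p = 0.0189), with slide as a block, and with the replicate block (adjusted p = 0.0332). On slide 2 alone Tgfa was -0.15, Erbb2 0.16 and Erbb3 0.36. Erbb3 was also positive with array quality weights (0.0696), without knockout 1 (0.25), control 1 (0.06) or control 3 (0.01), and Erbb2 without knockout 1 (0.11). With single arrays left out Erbb2 ranged from -0.28 to 0.11 and Erbb3 from -0.26 to 0.25.

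The number of pathway genes called over the 5 lists was 11, with 3 on slide 1 alone, 3 without a filter on dim probes, 3 at an adjusted p under 0.01, 6 with at least a 2-fold difference as well, 30 with array quality weights (a setting with 7097 genes called), 1 without both conflicting arrays, and 3 to 16 with single arrays left out. Of the member probes 3 were called, with 2 to 4 in every other setting run on the title groups (Areg in each, the second Egfr probe lost in most). In the replicate block 3 ligands, 0 receptors and 14 pathway genes passed, among the ERK-responsive genes Fos but not Egr1. The block also added Lrig3 (lower), Cdkl2 and Cd4 (lower), and the second Egfr probe did not pass. Same-numbered samples deviated together with correlations of 0.25, 0.08 and 0.35, and each correlated best with its own number, a hint from the data and not from the labels. Knockout 3 and control 3 were the only arrays on slide 2, so shared number and shared slide cannot be told apart. Signal near background limits Ereg, Egf, Tgfa, Btc and Epgn, and the small number of arrays limits the rest.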
